A study of Mus musculus with 2 samples.

Results

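The p53 targets and CDK inhibitors described here are 10 genes taken by their symbols from the 32285 features of the series: Trp53, Mdm2, Cdkn1a, Cdkn2a, Cdkn2b, Bax, Bbc3, Ccng1, Gadd45a and Gdf15. All 10 symbols were found, each on 1 row. The study profiled cells of mouse MC38 tumors by droplet-based single-cell RNA sequencing, which counts the 3′ ends of transcripts by unique molecular identifiers (UMIs). MC38 is a mouse colon carcinoma line, grown here under the skin of mice (C57BL/6 in the methods' account of this model). Tumors were injected 3 times at 3-day intervals with MSA-2, a small-molecule agonist of the innate DNA-sensing adaptor STING, or with the vehicle, and the tumors of 3 mice were pooled for each library. The samples list the vehicle tumors as untreated, the methods call them saline-treated and the series record names a saline vehicle with DMSO; they are called untreated below. Tumors were collected after the last dose and their cells were sorted. The labels give no strain, sex or age. The methods give an age range in weeks in their account of this model, and the supplemental methods give one for the mice of the study. The methods state that mice of both sexes were used for MC38 tumors, and the sex of the pooled mice is not given. The sources used here name no sort marker, and no genetic change is listed for either group.

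Each condition is 1 library, so no test between conditions was possible and the spread between tumors is unknown. Intervals in parentheses are exact 95% intervals that hold counting error only, and they do not hold the spread between cells. The files held 14386 untreated and 14617 MSA-2 barcodes, of which 13334 and 13393 cells were kept. Those barcode totals are the ones that the methods give after quality filtering, where the cells are called immune cells, while the labels call them tumor cells. Of the kept cells, 49.6% untreated and 51.7% MSA-2 fell in the tumor class. The libraries shared 53 barcodes, 39 of them among kept cells. Cells were assigned to classes by the share of their UMIs in marker lists, none of which holds a member. The MC38 tumor class held 6619 untreated and 6929 MSA-2 cells with medians of 19773 and 19682 UMIs per cell. The other classes held 3440 and 910 macrophages, 668 and 1067 Ly6c2 monocytes, 1382 and 246 NK/T cells, 257 and 661 fibroblasts, and 61 and 80 endothelial cells. Neutrophils (26 and 2468 cells) and dendritic cells (194 and 17) were too few in 1 library for a ratio. A level is given as CPM, that is, the class total for the gene per 1000000 UMIs in the class, which does not tell fewer expressing cells from less RNA per cell.

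The tumor class was gated on UMIs of its own marker list, so its levels of these genes are a description and no check of the gate. Gng11 stood at 1338 CPM without and 2132 CPM with MSA-2, Anxa1 at 1019 and 1179.7 CPM, and Tm4sf1 at 644 and 563 CPM. Ccn1 stood at 690.2 and 325 CPM, Areg at 26.4 and 15.4 CPM, Krt14 at 24.2 and 7.51 CPM and Ccn2 at 4.83 and 1.72 CPM. Of the epithelial genes in the same list, Krt8, Krt18, Krt7, Epcam and Cdh1 were each under 1 CPM in both libraries. The genes with high levels were shared with stroma: in untreated endothelial cells Gng11 (1448 CPM) and Tm4sf1 (1143 CPM) were higher than in tumor cells, and in untreated fibroblasts Ccn1 (960.4 CPM) and Ccn2 (275 CPM) were higher and Anxa1 stood at 836 CPM. The gate therefore did not call a cell tumor if it passed a stromal list, and none of these genes alone sets tumor cells apart. Genes of the fibroblast list were also present in the tumor class and differed between the libraries in both directions. Dcn stood at 426 and 1452 CPM and Col1a2 at 19.6 and 50.7 CPM, while Col3a1 stood at 1216 and 751 CPM and Postn at 69.1 and 18.3 CPM. Their source was not tested. Immune genes were present in the tumor class at low levels that differed between the libraries. Of a list of 7, S100a8 and S100a9 were higher in MSA-2 tumor cells (S100a9 1.53 and 221 CPM), while C1qa (132 and 38.8 CPM), Lyz2 and Cd3e were lower, and Ptprc and Tyrobp lay within 1.5-fold.

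The protein p53, encoded by Trp53, is a transcription factor that is stabilized by DNA damage and other stress and that halts the cell cycle or starts apoptosis through its target genes. Mdm2 encodes the ubiquitin ligase that degrades p53 and is itself a p53 target. Cdkn1a encodes p21, an inhibitor of cyclin-dependent kinases (CDKs) that p53 induces. Cdkn2a and Cdkn2b lie next to each other and encode INK4 inhibitors of CDK4 and CDK6, p16INK4a and p15INK4b, and Cdkn2a also encodes p19ARF, which inhibits Mdm2, from a separate first exon. Bax and Bbc3 (PUMA) act in mitochondrial apoptosis, Ccng1 encodes cyclin G1, Gadd45a encodes a stress-induced growth arrest protein, and Gdf15 encodes a secreted stress cytokine.

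In the GENCODE M21 annotation of GRCm38 (mm10), Cdkn2a spans chr4:89274471-89294653 on the minus strand and Cdkn2b spans chr4:89306299-89311039 on the same strand, 11645 bases away. The 2 coding transcripts of Cdkn2a start at 89282192 and 89294653, in separate first exons, and share 575 exonic bases at the 3′ side, which is the side that 3′ libraries read. UMIs of Cdkn2a therefore cannot be split into p16INK4a and p19ARF. Cdkn1a lies on the plus strand at chr17:29090976-29100727 and has upstream and downstream start sites. The other members lie at chr11:69580359-69591873 (Trp53), chr10:117688875-117710758 (Mdm2), chr7:45461697-45466898 (Bax), chr7:16308393-16318205 (Bbc3), chr11:40748552-40755311 (Ccng1), chr6:67035096-67037457 (Gadd45a) and chr8:70629393-70632456 (Gdf15). Bax overlaps Gm45808 on the same strand, so its UMIs are uncertain where reads fall in the shared stretch, and Cdkn1a and Gadd45a each overlap an annotated transcript on the opposite strand.

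The start regions of the 3 CDK inhibitors are shown because these genes recur in the results below, which do not depend on the sequences. Cdkn2a and Cdkn2b are neighbors whose ratios lay in opposite directions, and Cdkn1a is the member most used to read p53 activity. Each sequence holds the 250 bases before a RefSeq start site (GRCm38.p6), 5′ to 3′ on the strand of the gene. Capitals mark matches to CATG, then 6 bases of any kind, then CATG, the core of a p53 response element, or to the GC box GGGCGG, both searched on both strands.
Cdkn1a upstream start, chr17:29090729-29090978, plus strand: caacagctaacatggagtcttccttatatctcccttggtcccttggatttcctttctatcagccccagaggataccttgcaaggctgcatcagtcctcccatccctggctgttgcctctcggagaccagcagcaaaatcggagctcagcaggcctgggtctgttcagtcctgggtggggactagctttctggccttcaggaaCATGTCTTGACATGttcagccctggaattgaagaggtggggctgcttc
Cdkn2a p16INK4a start, chr4:89282193-89282442, minus strand: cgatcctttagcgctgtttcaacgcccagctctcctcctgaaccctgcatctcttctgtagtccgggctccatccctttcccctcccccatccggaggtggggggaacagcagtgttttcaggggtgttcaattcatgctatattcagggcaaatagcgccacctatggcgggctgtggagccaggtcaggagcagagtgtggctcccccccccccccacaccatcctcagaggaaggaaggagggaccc
Cdkn2a p19ARF start, chr4:89294620-89294869, minus strand: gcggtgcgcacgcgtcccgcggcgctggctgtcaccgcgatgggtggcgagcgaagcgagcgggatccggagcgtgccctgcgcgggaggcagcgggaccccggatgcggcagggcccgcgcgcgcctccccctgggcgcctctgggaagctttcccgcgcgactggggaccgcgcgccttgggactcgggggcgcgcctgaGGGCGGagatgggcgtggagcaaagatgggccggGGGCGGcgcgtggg
Cdkn2b start, chr4:89311033-89311282, minus strand: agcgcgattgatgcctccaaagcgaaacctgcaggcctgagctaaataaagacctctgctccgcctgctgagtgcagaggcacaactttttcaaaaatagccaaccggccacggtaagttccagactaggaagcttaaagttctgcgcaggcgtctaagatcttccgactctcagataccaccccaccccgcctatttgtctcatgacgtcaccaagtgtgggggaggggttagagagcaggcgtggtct

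The paired p53 letters occurred in 1 of the 15 start windows of the members, that of the upstream Cdkn1a start, where the match begins 48 bases before the start site and 2838 bases before the downstream start. Of all 32851 windows of this length, 0.490% held the paired letters. GC boxes occurred in 8 of the 15 windows, belonging to 6 of the 10 members, against 32.7% of all windows, and no printed window held both motifs. The p19ARF window held 2 GC boxes, and the p16INK4a and Cdkn2b windows held none. The window of the downstream Cdkn1a start, which is not printed, held 2 GC boxes and not the paired p53 letters. A match is a description of letters and no measure of binding.

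In MC38 tumor cells the RNA of p53 and of its best-known target differed little between the libraries, while the INK4 genes lay far apart. Trp53 stood at 104 CPM untreated and 107 CPM after MSA-2, a log2 ratio of 0.04 (0.00 to 0.07), and Cdkn1a at 111 and 113 CPM, a log2 ratio of 0.03 (0.00 to 0.06). The median over all 16066 genes tested was 0.05. A gene counted as past the fold at 1.5-fold or more with at least 50 UMIs over both libraries. Of the 10 members, all of which had that many UMIs in tumor cells, 1 was past the fold upward and 2 downward. Of all genes tested, 17.3% were past it upward and 11.9% downward, so a count of this size on 10 genes does not set the members apart.

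**Figure D1:**
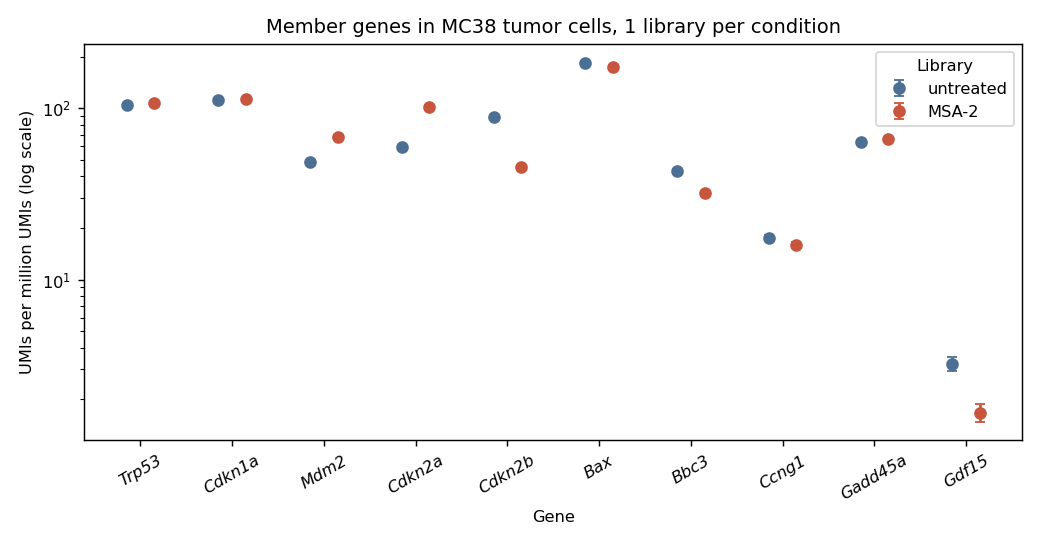
Level of each member in MC38 tumor cells, in CPM on a log axis, with 1 point per library and exact 95% Poisson intervals (mostly smaller than the points). Trp53 and Cdkn1a lie nearly level, Cdkn2a is higher (59.6 and 102 CPM) and Cdkn2b (89.2 and 45.3) and Gdf15 are lower in the MSA-2 library.

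Among the regulators of p53, Mdm2 had 7015 UMIs (48.6 CPM) in untreated tumor cells and 10763 UMIs (68.2 CPM) after MSA-2. Its log2 ratio of 0.49 (0.45 to 0.53), a fold of 1.40, stayed under the fold used for calls. With each cell thinned to 5000 UMIs, 21.2% of untreated (20.2% to 22.2%) and 29.7% of MSA-2 tumor cells (28.6% to 30.8%) held an Mdm2 UMI. The corresponding shares for Trp53 were 37.4% and 39.8%, and for Cdkn1a 36.5% (35.3% to 37.7%) and 36.8% (35.6% to 38.0%). Thinning left out 562 untreated and 476 MSA-2 tumor cells, and unthinned shares of Cdkn1a were 69.6% and 70.6%.

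Of the INK4 genes, Cdkn2a was higher and Cdkn2b lower in MSA-2 tumor cells. Cdkn2a stood at 59.6 CPM (8596 UMIs) untreated and 102 CPM (16030 UMIs) after MSA-2, a log2 ratio of 0.77 (0.73 to 0.81). Cdkn2b stood at 89.2 CPM (12865 UMIs) and 45.3 CPM (7143 UMIs), a log2 ratio of -0.98 (-1.02 to -0.94). The ratios of these neighbors thus lay on opposite sides. The share of thinned cells with a Cdkn2a UMI was 22.2% (21.2% to 23.3%) untreated and 34.5% (33.4% to 35.7%) after MSA-2. For Cdkn2b it was 31.9% (30.7% to 33.1%) and 19.9% (19.0% to 20.9%). The UMIs came from many cells: the 10 tumor cells with most Cdkn2a UMIs held 2.07% of them without and 1.80% with MSA-2, and for Cdkn2b 1.43% and 1.44%.

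UMIs of both neighbors were detected in the same tumor cells, and the part of RNA from other cells in this was not tested. Among thinned untreated tumor cells, Cdkn2b was detected in 37.1% of cells with a Cdkn2a UMI and in 30.4% of those without. After MSA-2 the shares were 23.0% and 18.3%. Mdm2 was detected in 21.7% of untreated cells with and 20.9% of cells without a Cdkn1a UMI, and in 32.5% and 28.0% after MSA-2. Bax was detected in 55.2% and 56.6% of untreated cells with and without Cdkn1a, and in 54.6% and 53.2% after MSA-2. These are shares over cells of 1 library that were thinned to equal depth, given as a description.

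The apoptosis genes did not pass the fold in tumor cells. Bax stood at 184 and 174 CPM, a log2 ratio of -0.08 (-0.10 to -0.05). Bbc3 stood at 43.2 and 32.1 CPM, a log2 ratio of -0.43 (-0.48 to -0.38), and its share of thinned cells was 19.4% untreated and 15.7% after MSA-2. Bbc3 was thus lower and Bax close to level. Of the remaining stress genes, Ccng1 stood at 17.4 and 15.9 CPM, a log2 ratio of -0.12 (-0.20 to -0.04), and Gadd45a at 63.4 and 66.0 CPM, a log2 ratio of 0.06 (0.02 to 0.10).

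Gdf15 was sparse in tumor cells and is the third member past the fold. It stood at 3.22 CPM (464 UMIs) untreated and 1.66 CPM (262 UMIs) after MSA-2, a log2 ratio of -0.95 (-1.18 to -0.73). It was found in 1.22% of thinned untreated (0.961% to 1.53%) and 0.666% of thinned MSA-2 tumor cells (0.483% to 0.897%). The 10 cells with most Gdf15 UMIs held 31.2% of all Gdf15 UMIs of untreated tumor cells and 20.6% of those of MSA-2 tumor cells, so a few cells weigh on this ratio. In untreated tumor cells Gdf15 reached 5.58% of its macrophage level, where C1qa, a macrophage gene, reached 1.93% of its own. In MSA-2 tumor cells these shares were 12.7% and 0.630%. Whether Gdf15 from macrophages adds to the tumor value was not tested.

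Unsupervised clusters of the tumor cells were next used to see how the members vary within a library. The clusters followed the libraries: 4 clusters held at least 100 untreated tumor cells and 4 others at least 100 MSA-2 tumor cells, so that a cluster here cannot be told apart from its library. Cdkn2b stood between 78.2 and 104 CPM in the untreated clusters and between 40.4 and 49.3 CPM in the MSA-2 clusters. Cdkn2a stood between 39.8 and 91.9 CPM untreated and between 63.4 and 112 CPM after MSA-2. Clusters of 1 library are not replicates. How often the ranges of all genes lie apart over these clusters was not counted, so these ranges do not set a member apart. The lowest Cdkn2a level of the MSA-2 library was in cluster 4, with Klk8 and Upp1 among its leading genes, and the highest of the untreated library was in cluster 1, led by Csmd3, Robo2 and Enpp2.

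**Figure D2:**
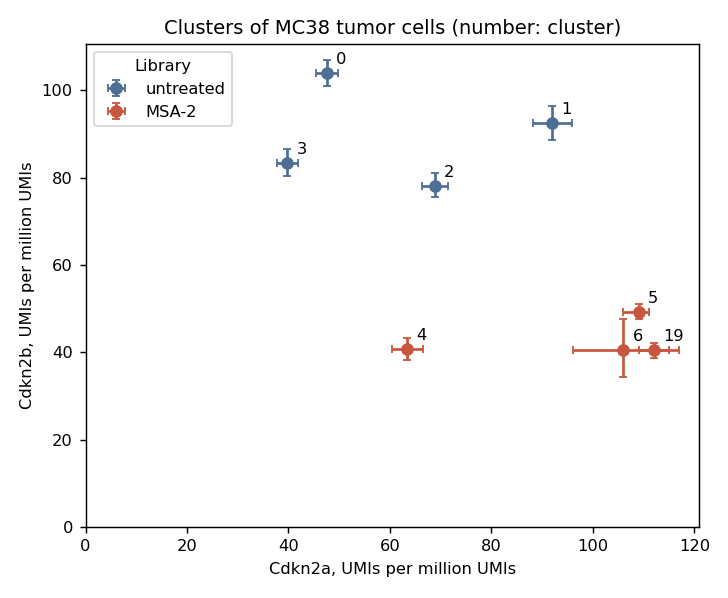
Cdkn2a (horizontal) and Cdkn2b (vertical) in each cluster of MC38 tumor cells, in CPM with exact 95% Poisson intervals, numbered by cluster and colored by library. Cdkn2b lies at 78.2 to 104 CPM in the 4 untreated clusters and at 40.4 to 49.3 CPM in the 4 MSA-2 clusters. Cdkn2a lies at 39.8 to 91.9 and at 63.4 to 112 CPM. How often all genes lie apart over these clusters was not counted.

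Cdkn1a and Gadd45a, level over all tumor cells, spread more widely among the MSA-2 than among the untreated clusters. How widely all genes spread over the same clusters was not computed. Cdkn1a stood between 99.8 and 125 CPM in the untreated clusters. In the MSA-2 library it was 75.0 CPM in cluster 4, 90.7 CPM in cluster 19, 138 CPM in cluster 5 and 168 CPM in cluster 6. Cluster 6, of 127 cells, was led by the neutrophil genes S100a9, S100a8 and G0s2. MSA-2 neutrophils stood at 1009.9 CPM of Cdkn1a, and the part of neutrophil RNA or doublets in cluster 6 was not tested. Gadd45a stood between 50.4 and 74.6 CPM untreated, against 35.4 CPM in cluster 4, 38.2 CPM in cluster 19, 72.6 CPM in cluster 6 and 97.6 CPM in cluster 5. The near-equal level of these genes over all tumor cells was therefore made of MSA-2 clusters on both sides of the untreated ones. Mdm2 stood between 38.3 and 58.9 CPM untreated and between 52.7 and 74.8 CPM after MSA-2.

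The CDK inhibitors were then read against cell cycling, since CDK inhibition halts the cycle. A thinned tumor cell was called cycling if UMIs of 3 or more of 10 cycling genes were found in it, as in 45.0% of untreated (43.7% to 46.3%) and 59.3% of MSA-2 tumor cells (58.1% to 60.5%). Cycling cells were deeper before thinning, with medians of 27664 and 24553 UMIs against 17716 and 16844 in non-cycling cells. Cdkn2a was the member past the fold: within the untreated library it stood at 69.8 CPM in cycling and 45.9 CPM in non-cycling cells, a log2 ratio of 0.61 (0.54 to 0.67). Within the MSA-2 library it stood at 115 and 73.1 CPM, a log2 ratio of 0.66 (0.60 to 0.71). Of all genes tested, 8.62% were past the fold upward and 6.58% downward in cycling cells of the untreated library, and 6.92% and 5.15% in the MSA-2 library. The members' count was 1 of 10 upward in each library, near these shares. With 5 or more cycling genes asked for, Cdkn2a left the fold in both libraries (0.50 and 0.38) while sparse Gdf15 passed it downward (-1.32 and -0.60), and with 2 or more it left it in the untreated library (0.56).

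The p53 gene followed the same direction at smaller size, and the other CDK inhibitors the opposite one. Trp53 had log2 ratios of cycling over non-cycling cells of 0.43 (0.39 to 0.48) untreated and 0.35 (0.30 to 0.40) after MSA-2. Cdkn2b had ratios of -0.45 (-0.50 to -0.40) and -0.22 (-0.29 to -0.15). Cdkn1a had ratios of -0.17 (-0.21 to -0.12) and -0.08 (-0.13 to -0.04). Cdkn1a and the proliferation gene Mki67 were not set apart in single cells: Mki67 was detected in 19.0% of untreated cells with and 18.5% of those without a Cdkn1a UMI, and in 26.4% and 25.7% after MSA-2.

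**Figure D3:**
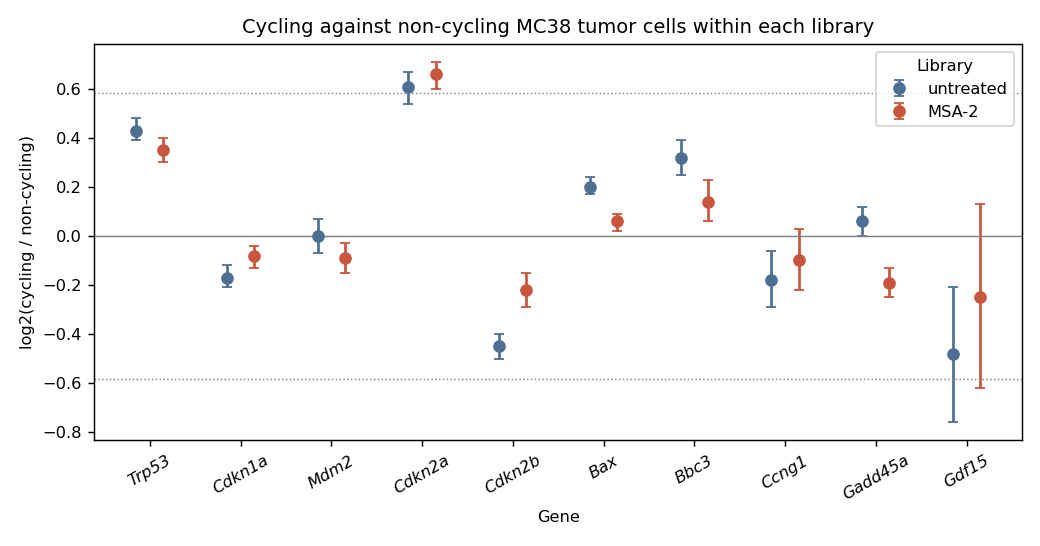
log2 ratio of each member in cycling over non-cycling MC38 tumor cells within each library, with exact 95% intervals; dotted lines mark 1.5-fold. Cdkn2a is the single member above the upper line in both libraries (0.61 and 0.66).

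The INK4 genes differed between the libraries in one direction in both kinds of tumor cell. In cycling cells the MSA-2 to untreated log2 ratio was 0.72 (0.67 to 0.77) for Cdkn2a and -0.83 (-0.89 to -0.78) for Cdkn2b. In non-cycling cells it was 0.67 (0.60 to 0.74) and -1.06 (-1.13 to -0.99). Cdkn1a stood at 105 and 110.3 CPM in cycling and at 118 and 117 CPM in non-cycling cells. Mdm2 had ratios of 0.45 and 0.55, and Gadd45a of -0.03 (-0.08 to 0.02) and 0.21 (0.15 to 0.28).

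Across cell classes, Cdkn1a was lowest in tumor and NK/T cells and highest in neutrophils. Among classes with at least 50 cells, in the untreated library it stood at 111 CPM in tumor cells, 136 in NK/T cells, 165 in fibroblasts, 289 in endothelial cells, 603 in macrophages, 631 in dendritic cells and 789 in Ly6c2 monocytes. In the MSA-2 library the order was NK/T cells (89.6 CPM), tumor cells (113), fibroblasts (297), endothelial cells (309), macrophages (560.4), monocytes (632) and neutrophils (1009.9). The 17 MSA-2 dendritic cells held 30 Cdkn1a UMIs (528 CPM, 356 to 753), an interval that takes in those of macrophages and monocytes. The other neighbors whose counting intervals overlapped were macrophages and dendritic cells in the untreated library and fibroblasts and endothelial cells in the MSA-2 library. In cells thinned to 1500 UMIs, a Cdkn1a UMI was found in 61.5% of MSA-2 neutrophils (59.2% to 63.8%), against 14.9% of MSA-2 tumor cells. The 26 untreated neutrophils held 59 Cdkn1a UMIs (1819 CPM, 1385 to 2347).

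**Figure D4:**
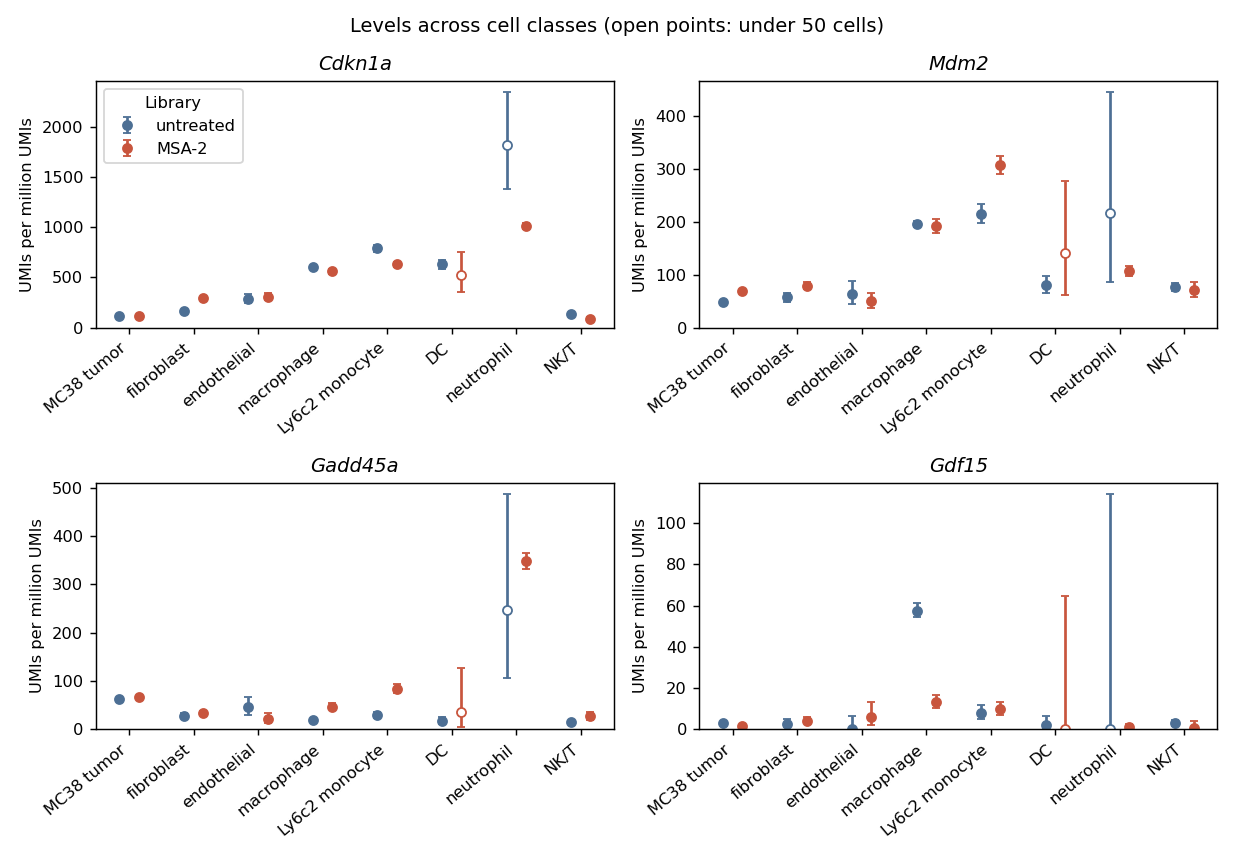
Level of Cdkn1a, Mdm2, Gadd45a and Gdf15 in each cell class and library, in CPM with exact 95% Poisson intervals. Open points are classes with under 50 cells in that library. Cdkn1a is highest in neutrophils (1819 CPM in 26 untreated cells and 1009.9 CPM after MSA-2), Gadd45a in neutrophils after MSA-2 (348 CPM), and Gdf15 in untreated macrophages (57.6 CPM).

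Of the 6 classes compared, the ratio of Cdkn1a lay farthest from 0 in fibroblasts. There Cdkn1a stood at 165 CPM (539 UMIs) untreated and 297 CPM (2834 UMIs) after MSA-2, a log2 ratio of 0.85 (0.72 to 0.99), while the median over all genes in fibroblasts was -0.16. Of the untreated fibroblasts, 123 of 257 held a Cdkn1a UMI and the 10 highest cells held 40.4% of the UMIs. Of the MSA-2 fibroblasts, 433 of 661 held one and the 10 highest held 14.8%. In cells thinned to 1500 UMIs the shares were 14.6% (10.5% to 19.5%) and 25.9% (22.5% to 29.4%). Within the largest fibroblast cluster, led by Col1a2, Col1a1 and Saa3, Cdkn1a stood at 172 and 319.5 CPM, a log2 ratio of 0.90 (0.74 to 1.05).

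Cdkn2b was the member with the lowest ratio in fibroblasts, at 59.8 CPM (196 UMIs) untreated and 17.7 CPM (169 UMIs) after MSA-2. Its log2 ratio was -1.76 (-2.06 to -1.45). The fibroblast level was 67.1% of the tumor level untreated and 39.1% after MSA-2, while the tumor-list genes stood in fibroblasts at 47.5% and 36.1% (Gng11), 46.2% and 54.9% (Tm4sf1) and 82.0% and 63.2% (Anxa1) of their tumor levels. The part of RNA from tumor cells in the fibroblast value was not tested. The share of thinned fibroblasts with a Cdkn2b UMI was 7.48% (4.56% to 11.4%) untreated and 1.39% (0.639% to 2.63%) after MSA-2. Of the 9 members with enough UMIs in fibroblasts, 1 was past the fold upward and 1 downward, where the whole gene set gave 12.0% and 18.9%. Mdm2 stood at 56.8 and 79.1 CPM, a log2 ratio of 0.48 (0.25 to 0.72). With TMM scaling, which moved the median of all fibroblast genes from -0.16 to 0.00, Mdm2 (0.64) and Ccng1 (0.59) also passed the fold, which made 3 upward and 1 downward, where 16.5% and 12.0% of all genes were under the same scaling. Cdkn2a stood at 17.7 and 15.5 CPM in fibroblasts, a log2 ratio of -0.19 (-0.64 to 0.27), and its direction turned with classes taken from clusters (0.84). S100a9 stood at 0.611 and 304 CPM in the same fibroblasts, at 0.614% of the neutrophil level after MSA-2, and its part in the Cdkn1a value was not tested.

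In immune classes Cdkn2a and Cdkn2b were low. In macrophages, Cdkn2a stood at 5.44 CPM untreated and 8.88 CPM after MSA-2, and Cdkn2b at 9.49 and 5.71 CPM. These are 9.14% and 8.74% of the tumor level for Cdkn2a and 10.6% and 12.6% for Cdkn2b, while in macrophages Gng11 stood at 13.1% and 14.1%, Tm4sf1 at 9.66% and 12.7% and Anxa1 at 16.8% and 17.9% of their tumor levels. In macrophages thinned to 1500 UMIs (median 5634 and 4867 UMIs before), 0.791% and 1.64% held a Cdkn2a UMI. In other immune classes Cdkn2b lay above the shares of these 3 genes in places: in untreated dendritic cells it reached 16.6% of its tumor level (20 UMIs) against 8.61% to 13.9% for the 3 genes, and in MSA-2 NK/T cells 15.3% (10 UMIs) against 11.1% to 13.4%. The macrophage ratios of Cdkn2a and Cdkn2b, 0.71 (0.16 to 1.23) and -0.73 (-1.37 to -0.15), are past the fold, and the part of RNA from tumor cells in them was not tested. With classes taken from clusters they came to 1.42 and -0.42, the latter within the fold.

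Gadd45a was higher in the MSA-2 library in all 3 immune classes compared. In macrophages it stood at 19.0 CPM (381 UMIs) untreated and 46.7 CPM (221 UMIs) after MSA-2, a log2 ratio of 1.30 (1.05 to 1.54). In Ly6c2 monocytes it stood at 28.4 CPM (78 UMIs) and 83.9 CPM (347 UMIs), a log2 ratio of 1.56 (1.20 to 1.93), and in NK/T cells at 14.5 CPM (80 UMIs) and 26.4 CPM (38 UMIs), a log2 ratio of 0.87 (0.27 to 1.44). In monocytes thinned to 1500 UMIs, 4.05% (2.66% to 5.88%) and 10.2% (8.37% to 12.4%) held a Gadd45a UMI. In MSA-2 neutrophils, where Gadd45a stood at 348 CPM, 32.0% (29.8% to 34.2%) did. The neutrophil gene S100a9 moved with these values, from 2.60 to 386 CPM in macrophages, from 1.46 to 341 CPM in monocytes and from 0.904 to 454 CPM in NK/T cells, which is 0.780%, 0.689% and 0.916% of its level in MSA-2 neutrophils, and its part in the Gadd45a values was not tested. With classes taken from clusters, Gadd45a left the fold in macrophages (0.52) and NK/T cells (0.23).

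Different clusters held most cells of these classes in the libraries. Untreated macrophages lay mostly in cluster 7 (2325 cells, led by Apoe, C1qc and C1qa) and cluster 8 (1016 cells, led by Cd74), and MSA-2 macrophages mostly in cluster 10 (593 cells, led by Pf4 and Ifnb1). Monocytes lay mostly in cluster 8 (521 untreated cells) and cluster 10 (966 MSA-2 cells), so the ratios of both classes compare cells of different clusters. Within cluster 7, which held 156 MSA-2 macrophages, Gadd45a stood at 15.1 and 24.9 CPM, a log2 ratio of 0.72 (-0.02 to 1.38), and Mdm2 at 184 and 73.4 CPM, a log2 ratio of -1.32 (-1.72 to -0.95). Over all macrophages Mdm2 stood at 196 and 191 CPM, so its near-equal level was not shared by this cluster.

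Gdf15 was the member with the lowest ratio in macrophages, the class with its highest level in the untreated library. It stood at 57.6 CPM (1154 UMIs in 359 of 3440 cells) untreated and 13.1 CPM (62 UMIs in 29 of 910 cells) after MSA-2, a log2 ratio of -2.14 (-2.53 to -1.77) that came to -1.23 with classes taken from clusters. The 10 highest cells held 19.5% of these UMIs without and 64.5% with MSA-2. In thinned macrophages its share was 4.84% (4.13% to 5.63%) and 1.29% (0.645% to 2.29%). Within cluster 7 it stood at 50.5 and 1.24 CPM (675 and 1 UMIs), and within cluster 11, led by Ccl8, Pf4 and Ccl6, at 558 and 44.6 CPM, a log2 ratio of -3.65 (-4.15 to -3.17). Cluster 11 held 55 untreated and 149 MSA-2 macrophages and carried 194 of the untreated UMIs. Of the 10 members tested in macrophages, 2 were past the fold upward and 2 downward, where the background was 11.6% and 16.6%. The low Cdkn2a and Cdkn2b are 2 of these 4.

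In Ly6c2 monocytes the apoptosis gene Bbc3 was higher after MSA-2, and Bax lay just past the fold on the other side. Bbc3 stood at 49.2 CPM (135 UMIs) untreated and 95.0 CPM (393 UMIs) after MSA-2, a log2 ratio of 0.95 (0.66 to 1.24). Bax stood at 280.0 and 185 CPM, a log2 ratio of -0.60 (-0.74 to -0.45), against a median of -0.20 over all genes in this class. Mdm2 stood at 215 and 307 CPM, a log2 ratio of 0.51 (0.37 to 0.66), and Cdkn1a at 789 and 632 CPM, a log2 ratio of -0.32 (-0.40 to -0.24). Of 8 members tested in monocytes, 2 were past the fold upward and 1 downward, with a background of 18.0% and 25.3%. Bax left the fold with the stricter marker gate (-0.54) and the stricter cell filter (-0.54), which made 2 upward and 0 downward. Of all genes, 20.2% were past the fold upward and 24.6% downward with that gate, and 17.8% and 25.3% with that filter. With TMM scaling Bax also left it (-0.40) and Mdm2 passed it (0.71), which made 3 upward and 0 downward, where 22.9% and 15.2% of all genes were under the same scaling, which moved their median from -0.20 to -0.01.

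In NK/T cells Cdkn1a was lower, at 136 CPM (751 UMIs) untreated and 89.6 CPM (129 UMIs) after MSA-2, a log2 ratio of -0.60 (-0.88 to -0.33). This value lies just past the fold and left it under TMM scaling (-0.46), the stricter cell filter (-0.57) and classes from clusters (-0.56). The clusters of this class were unequally filled: cluster 13 held 228 of 1382 untreated and 109 of 246 MSA-2 cells, and cluster 12, with Skap1 and Satb1 among its leading genes and at 182 CPM of Cdkn1a untreated, held 483 and 47. Within cluster 14, led by Ifng, Cd3g and Trbc2, Cdkn1a stood at 126 and 61.0 CPM, a log2 ratio of -1.04 (-1.65 to -0.49). Within cluster 13, led by the granzymes Gzmc, Gzma and Gzmb, it stood at 99.1 and 113 CPM, a log2 ratio of 0.18 (-0.23 to 0.59). Of 9 members tested in NK/T cells, 1 was past the fold upward and 1 downward, with a background of 9.71% and 20.2%. Trp53 differed little in any of these classes, with log2 ratios between -0.10 (monocytes) and 0.18 (fibroblasts).

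In endothelial cells only Trp53, Cdkn1a, Mdm2 and Bax had 50 UMIs, and none of the 4 was past the fold, with a background of 13.3% upward and 17.7% downward. Cdkn1a stood at 289 and 309 CPM, a log2 ratio of 0.10 (-0.18 to 0.38). Cdkn2a, at 2 untreated and 30 MSA-2 UMIs, and Cdkn2b, at 17 and 8, were below the minimum, as was Gadd45a at 26 and 21.

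**Figure D5:**
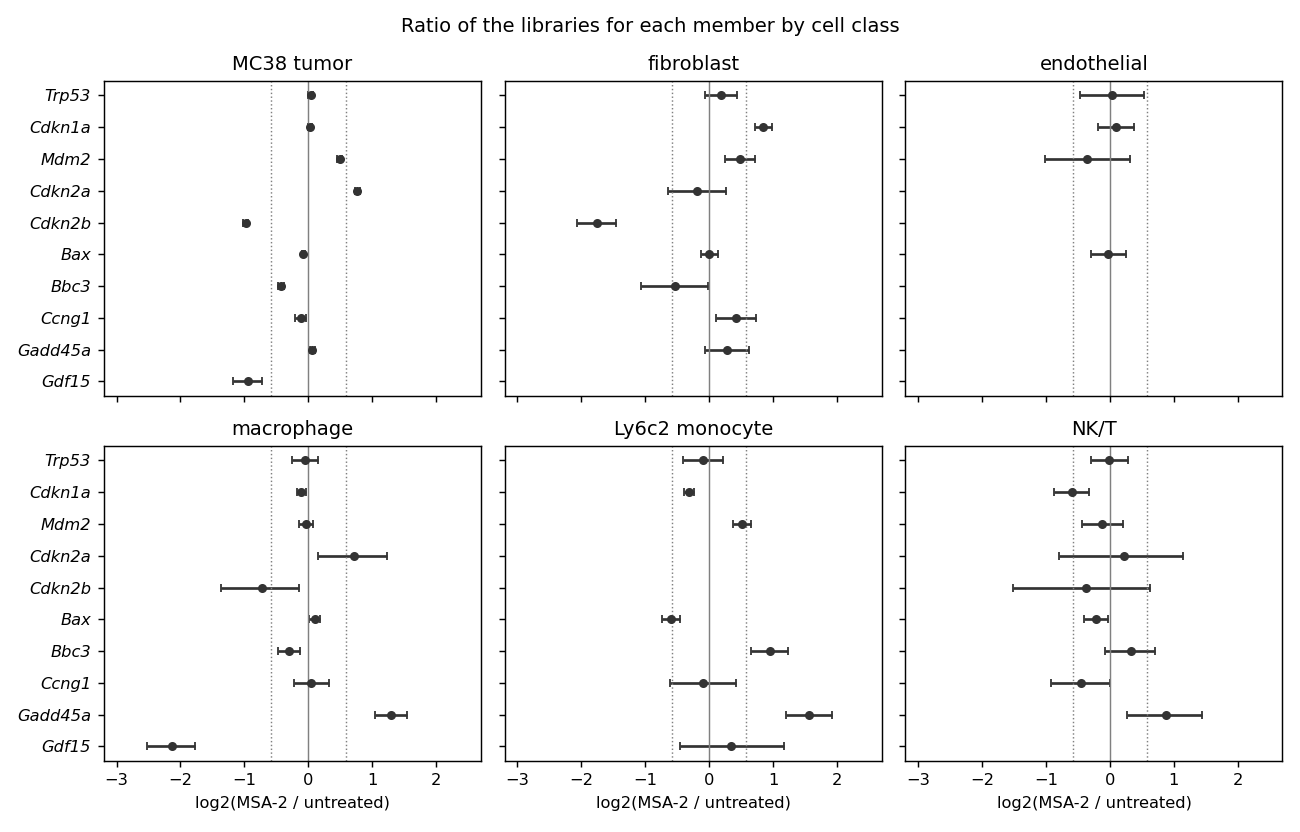
log2 ratio of MSA-2 over untreated for each member with at least 50 UMIs in each of 6 cell classes, with exact 95% intervals from counting error; dotted lines mark 1.5-fold. Cdkn2a and Cdkn2b lie on opposite sides in tumor cells (0.77 and -0.98), Cdkn1a is highest in fibroblasts (0.85), and Gadd45a is past the upper line in macrophages, monocytes and NK/T cells.

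Other genes of the pathway, taken as lists, were read in the same tumor cells. Of 24 further p53 targets, 4 were past the fold upward and 4 downward, near the shares of 17.3% and 11.9% over all genes, with a median log2 ratio of 0.02 against 0.05 over all genes. The death receptor Fas stood at 16.1 and 43.8 CPM (log2 ratio 1.44), the ectodysplasin receptor Eda2r at 22.4 and 47.1 CPM (1.07), the apoptosome scaffold Apaf1 at 86.8 and 151 CPM (0.79) and the repair gene Ddb2 at 4.42 and 7.84 CPM (0.83). On the other side, the antiproliferative gene Btg2 stood at 644 and 245 CPM (-1.40), Phlda3 at 152 and 70.8 CPM (-1.10) and Ei24 at 42.4 and 25.9 CPM (-0.71). Perp, also past the fold, was near 0 in both libraries with 59 and 5 UMIs. The p53 targets thus lay on both sides, like the members.

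Of 13 tested p53 regulators, Hipk2, a kinase that phosphorylates p53, stood at 43.0 and 101 CPM (log2 ratio 1.24), and the damage kinase Atr at 11.5 and 17.2 CPM (0.59). Trp63, a p53 relative, had 188 and 75 UMIs (-1.45). Of the 4 other CDK inhibitors tested, 2 were past the fold downward and 0 upward, where the background was 11.9% and 17.3%. Cdkn1c (p57) stood at 4.37 and 0.710 CPM (-2.62) and the INK4 gene Cdkn2c (p18) at 21.1 and 12.0 CPM (-0.81). The median of the 4 was -0.70. Of 13 CDKs, cyclins and pocket proteins, Cdk4, the kinase that INK4 proteins bind, stood at 320.0 and 202 CPM (-0.66), and Rbl1 (p107) at 12.1 and 19.5 CPM (0.69).

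Of 12 tested BCL2 family genes, the antiapoptotic Bcl2l1 stood at 12.9 and 35.4 CPM in tumor cells (1.45), and Bcl2a1b and Bcl2a1d, which are expressed in immune cells, were lower (-1.25 and -1.74). In the same cells C1qa and Lyz2 had ratios of -1.76 and -1.70, and their part in the Bcl2a1 values was not tested. Neither of the other GADD45 genes was past the fold. Of 8 integrated stress response genes, 1 was, Nupr1 at 704 and 466 CPM (-0.59). None of the 10 cycling markers was, with a median of 0.12.

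Outside tumor cells, the other p53 targets past the fold were 4 upward and 5 downward of 21 in fibroblasts, where the background was 12.0% and 18.9%, 1 and 4 of 6 in endothelial cells (13.3% and 17.7%), and 3 and 1 of 21 in macrophages (11.6% and 16.6%). They were 4 and 2 of 14 in monocytes (18.0% and 25.3%) and 4 and 5 of 20 in NK/T cells (9.71% and 20.2%). The genes described next were chosen after their values were seen. Plk2, a polo-like kinase gene, had log2 ratios of -0.76 in fibroblasts, -1.01 in endothelial cells and 1.36 in monocytes. Btg2 was past the fold downward in all 6 classes, with log2 ratios between -1.79 in NK/T cells and -0.83 in endothelial cells. Apaf1 was past it upward in tumor cells, macrophages, monocytes and NK/T cells (0.79, 0.62, 0.70 and 0.60). Fas was past it upward in tumor cells, macrophages and monocytes (1.44, 1.67 and 1.41), and the damage kinase Atm in fibroblasts, macrophages, monocytes and NK/T cells (1.19, 1.03, 2.62 and 2.33). Ppp1r15a, the GADD34 phosphatase subunit of the stress response, was past it upward in the 5 classes other than tumor cells, at 277 and 1974 CPM in monocytes (2.83), 635 and 1699.5 CPM in macrophages (1.42), 281 and 957 CPM in NK/T cells (1.77), 174 and 533 CPM in fibroblasts (1.62) and 246 and 859 CPM in endothelial cells (1.80). Pmaip1 (NOXA), a proapoptotic p53 target, had both directions: it stood at 102 and 173 CPM in monocytes (0.77) and at 109 and 256 CPM in NK/T cells (1.23), but at 11.3 and 6.49 CPM in fibroblasts (-0.80).

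Finally, the genes whose level over classes and libraries was most like that of a member were listed, by Pearson r of log2 of CPM plus 10 over the 14 pairs of class and library with at least 50 cells, among 11392 genes. Pairs share libraries, so r is a description only. For Cdkn1a these were Sgk3, Baz2b and Csf2rb, each with r = 0.93. For Gdf15 they were Fhad1 (0.92), Syngr1 (0.89) and Negr1 (0.87). For Cdkn2a they were 3110039M20Rik, Kirrel3 and Gm9732, each with r = 0.98.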

How the data were processed

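The values deposited by the authors are UMI counts, not normalized, of every gene in every barcode of 10x Chromium 3′ v3.1 libraries. The submitters' processing notes name Cell Ranger 7.0.0, Seurat 4.3.0 and mm10, while the methods name later versions of both programs. Whether intronic reads were counted was not given in the sources used here. Barcodes under 500 genes or over 20% mitochondrial UMIs were dropped (347 untreated, 654 MSA-2). Doublets were then called with Scrublet (scanpy 1.11.5; 0.8% expected for each 1000 barcodes), which removed 705 untreated (5.02%) and 570 MSA-2 (4.08%) barcodes. Classes were gated cell by cell on the share of UMIs in marker lists, with thresholds set after the data were seen. No list was passed by 414 and 503 cells. A further 256 and 499 cells passed several lists with none clearly ahead and were left out of the classes. Leiden clusters used 2000 variable genes, 30 components and resolution 1.0, without integration, the members or interferon-stimulated genes. Sums, ratios and intervals (Poisson, Clopper-Pearson, conditional binomial) came from numpy 2.4.6 and scipy 1.17.1 under Python 3.11.15, and TMM factors with edgeR 4.0.16 in R 4.3.3. The ratio, its interval and the fold call were tested on simulated Poisson counts without spread between cells, which checks the calculation only. A count of 0 was taken to allow 3 counts. The members and lists were chosen with earlier results of these data known. Named genes were the 10 members, list genes past 1.5-fold with at least 50 UMIs and the 3 genes most like Cdkn1a, Gdf15 and Cdkn2a. Class markers, immune background genes, genes leading a cluster and Mki67 were named as well. Outside tumor cells only some list genes are printed. Alternatives were tried for the filter, doublets, classes, scaling, added CPM, depth, fold, minimum, thinning and cycling gate. RefSeq start windows matched all 10 members.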

Additional observations from a re-analysis of the deposited data

Results flagged for a closer look

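Cdkn1a was past 1.5-fold in opposite directions in different cell classes of the same libraries: its MSA-2 to untreated log2 ratio was 0.85 in fibroblasts and -0.60 in NK/T cells. The counting intervals were 0.72 to 0.99 and -0.88 to -0.33. Of all genes tested, 12.0% were past the fold upward in fibroblasts and 20.2% downward in NK/T cells. How many genes passed it in opposite directions in different classes was not counted, so this does not set Cdkn1a apart. The NK/T value was under the fold with TMM scaling (-0.46), the stricter cell filter (-0.57) and classes from clusters (-0.56). With 1 library per condition the difference between the classes was not tested. No group holds the 4 samples that a check for an outlying sample needs.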

How the results depend on the processing

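No paired analysis was possible because each condition is 1 library. In tumor cells 3 members (1 upward, 2 downward) were past the fold under each filter, doublet, class, scaling, depth, added CPM and minimum tried. At a fold of 2 the count was 0. Of all genes, 16.1% to 18.3% were past the fold upward and 11.9% to 13.2% downward, except with 1 CPM added (8.48% and 6.58%). Shares over all genes at other minimums and at a fold of 2 are not given. Cdkn1a in tumor cells moved from 0.03 to -0.02 with TMM factors, and its range over 9 alternatives was -0.02 to 0.03. Over the same alternatives Cdkn2a ranged from 0.73 to 0.78, Cdkn2b from -1.02 to -0.93 and the sparse Gdf15 from -1.43 to -0.66. TMM factors moved the median of all genes by over 0.1 in the other classes (fibroblasts -0.16 to 0.00, monocytes -0.20 to -0.01, macrophages -0.15 to -0.01, NK/T cells -0.15 to -0.01, endothelial cells -0.12 to 0.00). The count of members past the fold went from 2 to 4 in fibroblasts with TMM (3 upward), where 16.5% of all genes were past it upward and 12.0% downward. It went to 3 with the stricter gate (Bbc3 at -0.67), where these shares were 12.4% and 19.3%, and with classes from clusters (14.0% and 19.9%). In macrophages the count went from 4 to 2 with classes from clusters (14.1% and 18.0%), where cluster 10 stayed unnamed. There Gadd45a had a log2 ratio of 0.52 and no Ly6c2 monocyte class was left. With the same classes Gdf15 in macrophages came to -1.23 and Cdkn2a in fibroblasts turned from -0.19 to 0.84. In Ly6c2 monocytes Bax left the fold with the stricter gate, the stricter filter and TMM. In NK/T cells the count went from 2 to 1 with the stricter filter and TMM, which left Gadd45a. Shares of all genes upward and downward were 9.58% and 20.3% with that filter and 13.8% and 14.2% with TMM. The count also went to 1 with classes from clusters (8.33% and 22.6%), where Gadd45a and Cdkn1a left the fold and Cdkn2b passed it (-1.90). With equal weight per cell it went to 4, 2 upward and 2 downward, where the shares were 11.1% and 20.9%. Integrated stress response genes past the fold in tumor cells went from 1 to 2 with doublets kept, with classes from clusters and with TMM. Members past the fold in cycling untreated tumor cells went from 1 to 0 at 2 of 10 markers, where no share over all genes is given. Shares of tumor cells with a UMI depend on depth: thinned to 2000 UMIs and not thinned they were 18.4% and 69.6% (untreated) and 18.5% and 70.6% (MSA-2) for Cdkn1a, 10.3% and 50.4%, and 17.7% and 65.7%, for Cdkn2a, and 15.9% and 63.7%, and 8.46% and 51.5%, for Cdkn2b. The alternatives for the lists, TMM, equal weight and clusters outside tumor cells, and the removal of barcodes found in both libraries, were chosen after seeing the data. The causes of these moves were not tested.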
